A study of Mus musculus with 12 samples.

Results

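The genes described here are 6 genes that mark Kupffer cells, *Clec4f*, *Timd4*, *Vsig4*, *Cd5l*, *Cd209f* and *Folr2*, taken by symbol from the 16969 genes of the deposited table. Kupffer cells are the resident macrophages of the liver, which line the sinusoids and remove particles, bacteria and dying cells from the blood. Their identity depends on signals from neighbouring endothelial, stellate and parenchymal cells, and monocytes that enter from the blood to replace them lack most of their marker genes at first. In this tissue the 6 genes are known as markers of the resident cell, while genes such as those of complement C1q are shared by macrophages in general.

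GFP(+) cells were sorted from the nonparenchymal fraction of mouse livers and their mRNA was sequenced. The labels give the strain as C57BL/6, and in the study's methods the *Prom1* allele came on C57BL/6N and the reporter on C57BL/6J. All mice had the genotype Prom1CreERT2-nLacZ/+;Rosa26Lsl-GFP/+ and received tamoxifen 7 days before surgery, so that cells which used the *Prom1* promoter at that time, and their descendants, carried GFP. The study's methods give 6-week-old adult mice of both sexes, whose proportions differed between the groups. The groups were day 0, which the labels describe as sham, and 3 and 14 days after bile duct ligation (BDL), a surgical block of bile flow. The labels list 3, 3 and 6 samples for the 3 groups, and the deposited means rest on 3, 3 and 4 libraries. The label of the sorted cells is *Prom1*-expressing progenitor cells and their progeny. In these cells 8 of 12 cholangiocyte markers were kept by the filter on low values, with summed normalized counts of 123, 90.1 and 103 in the groups as ordered. All 18 general macrophage genes were kept, and their sums were 18543, 31834 and 29597. The 6 genes are therefore read as genes of macrophages among the sorted cells, and fewer Kupffer cells in the sort and less RNA of these genes per cell cannot be told apart.

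The table holds 1 mean per group for each gene, in normalized counts, and no value of a single library. Beside the group means it gives the arithmetic mean, the geometric mean and the highest value over the 10 libraries. The further the libraries of a group lie apart, the further the geometric mean drops below the value that equal libraries would give. That gap yielded an approximate SD between libraries of the same group, on the log2 scale and pooled over the groups, and from it an SE for each log2 ratio. The same gap limits how low or high any library of a group can be. Where 2 groups are said not to overlap, no arrangement of the libraries allowed by the table could bring a library of one group to the level of the other. Differences are called at 2-fold or more. The words rose and fell are kept for differences that passed 2-fold without possible overlap. Means listed without these words may have passed as well. No p-value is given.

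The promoters of the genes with the smallest and the largest decreases are shown because the genes were lower together at BDL day 14 and by unequal amounts. They are the bases before the transcription start in RefSeq on GRCm38.p6, written 5′ to 3′ on the strand of the gene, with the transcribed bases left off. Capitals mark matches on either strand to GAGGAA, the core bound by the macrophage factor PU.1, to TGGGAA, the core of the Notch factor RBPJ, to TGCTGA, the half-site of MAF factors, or to CAGACA, bound by SMAD factors. The stretches are chrX:96293439-96293688 (minus strand) for *Vsig4*, chr3:87357631-87357880 (plus strand) for *Cd5l*, chr11:46810549-46810785 (plus strand) for *Timd4* and chr8:4105839-4106014 (minus strand) for *Cd209f*.
Vsig4: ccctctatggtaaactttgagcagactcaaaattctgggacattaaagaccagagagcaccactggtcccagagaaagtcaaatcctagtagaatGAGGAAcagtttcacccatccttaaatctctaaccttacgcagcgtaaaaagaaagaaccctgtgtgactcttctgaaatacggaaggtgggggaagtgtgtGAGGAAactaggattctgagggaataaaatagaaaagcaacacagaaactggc
Cd5l: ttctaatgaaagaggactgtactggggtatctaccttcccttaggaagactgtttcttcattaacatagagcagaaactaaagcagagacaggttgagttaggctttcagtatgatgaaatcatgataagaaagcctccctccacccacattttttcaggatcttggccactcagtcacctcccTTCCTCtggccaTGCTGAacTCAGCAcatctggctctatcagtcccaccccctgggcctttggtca
Timd4: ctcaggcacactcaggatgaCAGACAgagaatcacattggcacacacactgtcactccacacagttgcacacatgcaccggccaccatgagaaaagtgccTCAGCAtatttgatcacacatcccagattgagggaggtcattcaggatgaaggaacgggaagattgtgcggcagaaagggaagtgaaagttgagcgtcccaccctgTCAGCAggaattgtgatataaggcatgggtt
Cd209f: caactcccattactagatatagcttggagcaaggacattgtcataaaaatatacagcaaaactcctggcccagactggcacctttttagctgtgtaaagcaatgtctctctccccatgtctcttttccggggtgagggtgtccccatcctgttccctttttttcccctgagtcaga

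The motifs were searched in the first 250 bases of each promoter window, which hold the transcribed bases left off above, 74 for *Cd209f* and 13 for *Timd4*. GAGGAA was found in 2 of the 7 windows of these genes (*Folr2* has 2 starts), in *Vsig4* and *Cd5l*. Of all 32851 promoter windows, 23.3% held it. TGCTGA was found in 5 of the 7 windows, in *Cd5l*, *Clec4f*, *Timd4* and both of *Folr2*, and in 16.1% of all windows. TGGGAA was found in *Clec4f* alone (21.6% of all windows) and CAGACA in *Timd4* alone (17.1%). A further CAGACA of *Timd4*, starting 9 bases before the end of the bases searched, lay in the part left off the printed stretch. *Cd209f* held none of the 4 motifs. No match overlapped a match of another motif, and a match is a description of the sequence and not a site of binding.

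All 6 are protein-coding genes. *Clec4f* encodes a C-type lectin that binds galactose-bearing glycans and lies on chromosome 6 at 83644542 to 83656187 (GRCm38, minus strand). The mean, in normalized counts, was 4610 on day 0, 6890 on BDL day 3 and 185 on BDL day 14. Its libraries could lie between 1863 and 7650 on day 0, between 2784 and 7650 on BDL day 3 and between 72.3 and 342 on BDL day 14. The first 2 groups could thus share values, and BDL day 14 lay apart from both.

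*Timd4* encodes a receptor for phosphatidylserine, by which macrophages take up apoptotic cells, and lies on chromosome 11 at 46810800 to 46844332 (plus strand). The mean was 268 on day 0, 579 on BDL day 3 and 12.1 on BDL day 14. Its libraries were limited to 50.7 to 582 before BDL, to 109 to 809 on BDL day 3 and to 2.19 to 28.8 on BDL day 14. The highest library, at 809, had to be one of BDL day 3 and held 46.6% of the summed count of that group. This was the widest spread among the 6 genes, with an SD of 0.75 on the log2 scale.

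*Vsig4* encodes the complement receptor CRIg, which binds fragments of C3 on bacteria in the blood, and lies on chromosome X at 96247203 to 96293438 (minus strand). The day 0 mean of 1020 compares with 2040 on BDL day 3 and 207 on BDL day 14. Its highest library, at 2310, was also one of BDL day 3. Taken singly, the limits of day 0 (281 to 2024) and BDL day 14 (54.9 to 442) cross, but the spread that the table allows was too small for both to be reached at once, so the groups did not overlap.

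*Cd5l* encodes a secreted scavenger protein, also called AIM, made by tissue macrophages under the control of the nuclear receptor LXR, and lies on chromosome 3 at 87357881 to 87371073 (plus strand). The group means were 2620, 7440 and 691 in order of time. The libraries could lie between 804 and 5042 at day 0 and between 204 and 1424 at BDL day 14. Overlap between these 2 groups was not excluded, for *Cd5l* alone among the 6 genes. The BDL day 3 libraries, from 2283 to 9210, lay above those of BDL day 14.

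*Folr2* encodes folate receptor beta and lies on chromosome 7 at 101839988 to 101857194 (minus strand), where the annotation has 2 other genes, Gm10602 and Gm45319, on the opposite strand. Strand-specific counting is not stated, so their reads cannot be told apart. In order of time, *Folr2* had means of 602, 1020 and 62.8. BDL day 14 was again the low group, with libraries between 22.3 and 121 against 222 to 1093 at day 0.

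*Cd209f* encodes a C-type lectin of the family of DC-SIGN and lies on chromosome 8 at 4102787 to 4105835 (minus strand). The means of day 0 and BDL day 3 were 38.0 and 37.5, and that of BDL day 14 was 0.368. The BDL day 14 mean amounts to 1.47 normalized counts summed over 4 libraries and was 6.03 times the lowest mean that the table holds for that group. The size of its decrease therefore rests on very few reads, and the family has near copies such as *Cd209g*, between which the counting could divide reads.

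**Figure D1:**
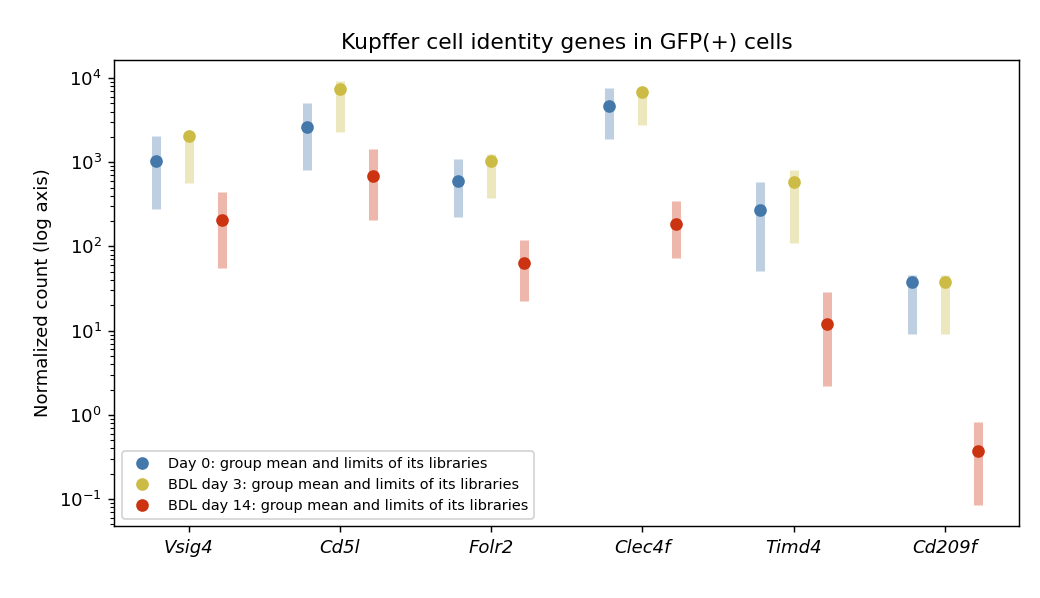
Group means (points) of the 6 Kupffer cell identity genes in normalized counts on a log axis, ordered by the decrease from BDL day 3 to BDL day 14. Bars are the limits within which every library of the group must lie, and the BDL day 14 bars lie lowest for each gene, from 54.9 to 442 for *Vsig4* and from 0.0851 to 0.820 for *Cd209f*.

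Per kilobase of exon, *Clec4f* was the most abundant of the 6 at day 0 with a mean of 1866 normalized counts per kilobase. *Cd5l* (1287), *Vsig4* (687), *Folr2* (389), *Timd4* (123) and *Cd209f* (19.1) followed. The order of the first 2 was reversed in mean after BDL. *Cd5l* stood at 3654 per kilobase on BDL day 3 and at 339 on BDL day 14, against 2788 and 74.9 for *Clec4f*. The ratio of *Clec4f* to *Cd5l* per kilobase was 1.45, then 0.763 and last 0.221. *Vsig4*, at 139 per kilobase, was also above *Clec4f* at BDL day 14. The limits of the libraries of *Clec4f*, *Cd5l* and *Vsig4* at day 0 cross one another once length is taken into account. So do those of *Clec4f* and *Cd5l* at BDL day 3 and those of all 3 genes at BDL day 14, and these orders are of means alone.

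At BDL day 3 the means of 5 of the 6 genes were above those of day 0, and none of the 6 passed 2-fold without possible overlap. *Cd5l* had the largest log2 ratio, 1.51 ± 0.47 (SE), or 2.84-fold. *Timd4* stood at 1.11 ± 0.62 and *Vsig4* at 1.00 ± 0.50, which is just at the threshold. *Folr2* (0.76 ± 0.40) and *Clec4f* (0.58 ± 0.36) were below 2-fold, and *Cd209f* had a ratio of -0.02 ± 0.55, which was 0.0047 under median-ratio scaling and thus has no direction. In all, 3 of 6 genes were at least 2-fold higher, and of the 12889 kept genes 7.52% were. The groups could overlap for all 6, and 2.48% of the kept genes were higher at BDL day 3 without overlap. The median log2 ratio of the 6 genes was 0.88, against -0.02 over all kept genes. Neighbours in this order differed by less than the sum of their SEs throughout. *Cd5l* exceeded *Cd209f* by 1.52 against a sum of 1.02 and *Clec4f* by 0.93 against 0.83, and the other pairs had gaps below that sum.

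The means of macrophage genes as a whole were also higher at BDL day 3. The general macrophage list had a median log2 ratio of 0.77 in the same comparison, with 3 of 18 genes at least 2-fold higher and none 2-fold lower. Scaled to that list, which lowers the median of all genes in this comparison to -0.59, 0 of the 6 genes reached 2-fold, *Cd5l* stood at 0.94 and *Clec4f* at 0.01. Without the highest library of each gene where its group was known, *Cd5l* alone remained above 2-fold, at 1.32, and *Timd4* stood at 0.79 and *Vsig4* at 0.90.

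From BDL day 3 to BDL day 14 all 6 genes fell, and in none of them could a BDL day 14 library reach the BDL day 3 libraries. *Cd209f* decreased 102-fold, *Timd4* 47.9-fold and *Clec4f* 37.2-fold, while *Folr2* decreased 16.2-fold, *Cd5l* 10.8-fold and *Vsig4* 9.86-fold. Of the 12889 kept genes 10.1% were at least 2-fold lower, and 1.92% were lower with no overlap possible. The median log2 ratio was -4.62 for the 6 genes and -0.0031 for all kept genes. Of all kept genes, 3 had a lower ratio than *Cd209f*, and *Timd4*, *Clec4f*, *Folr2*, *Cd5l* and *Vsig4* ranked 10, 16, 62, 107 and 124 from the lowest.

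**Figure D2:**
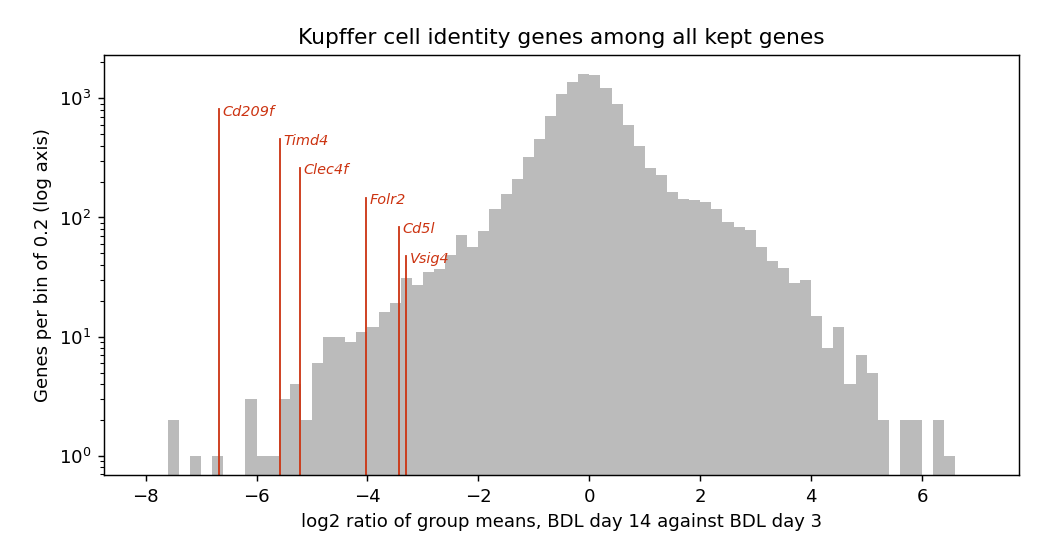
Histogram of the log2 ratio of group means at BDL day 14 against BDL day 3 over the 12889 kept genes, in bins of 0.2 with a log axis of gene counts. Red lines mark the 6 Kupffer cell identity genes, which lie between -3.30 (*Vsig4*) and -6.67 (*Cd209f*), in the lower tail.

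The decreases were unequal, and part of the order exceeded the estimated error. The log2 ratio was -6.67 ± 0.51 (SE) for *Cd209f*, -5.58 ± 0.58 for *Timd4*, -5.22 ± 0.34 for *Clec4f*, -4.02 ± 0.38 for *Folr2*, -3.43 ± 0.44 for *Cd5l* and -3.30 ± 0.47 for *Vsig4*. The span from the smallest to the largest was 3.37, a 10.3-fold difference in how much of the BDL day 3 mean was left. What was left was 10.1% for *Vsig4*, 9.29% for *Cd5l*, 6.16% for *Folr2*, 2.69% for *Clec4f*, 2.09% for *Timd4* and 0.981% for *Cd209f*. How the deviations of 2 genes go together across libraries is unknown, so each gap was set against the sum of the 2 SEs. That sum is the widest error only if the groups have equal spread, as the SEs assume. The study describes greater variability among BDL day 14 replicates than at day 0, so the error could be larger.

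By that measure *Clec4f* and *Folr2* are the neighbours that stood apart, with a gap of 1.20 against 0.72. *Timd4* and *Clec4f* (0.36 against 0.91), *Folr2* and *Cd5l* (0.59 against 0.81) and *Cd5l* and *Vsig4* (0.13 against 0.90) differed by less than their error. *Cd209f* and *Timd4* (1.09 against 1.09) were at the limit. Of the 15 pairs, 11 had a gap above the sum of the SEs and 7 above 2 times that sum. *Timd4*, *Clec4f* and *Cd209f* each lay beyond 2 times the sum from both *Cd5l* and *Vsig4*, and *Cd209f* also from *Folr2*. The SE of *Cd209f*, which like the others assumes the same spread in each group, does not hold the counting error of so low a mean. With a pseudocount of 1 its ratio was -4.81, smaller than -5.47 for *Timd4* and -5.21 for *Clec4f*, so its place as the largest decrease depends on its few reads.

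**Figure D3:**
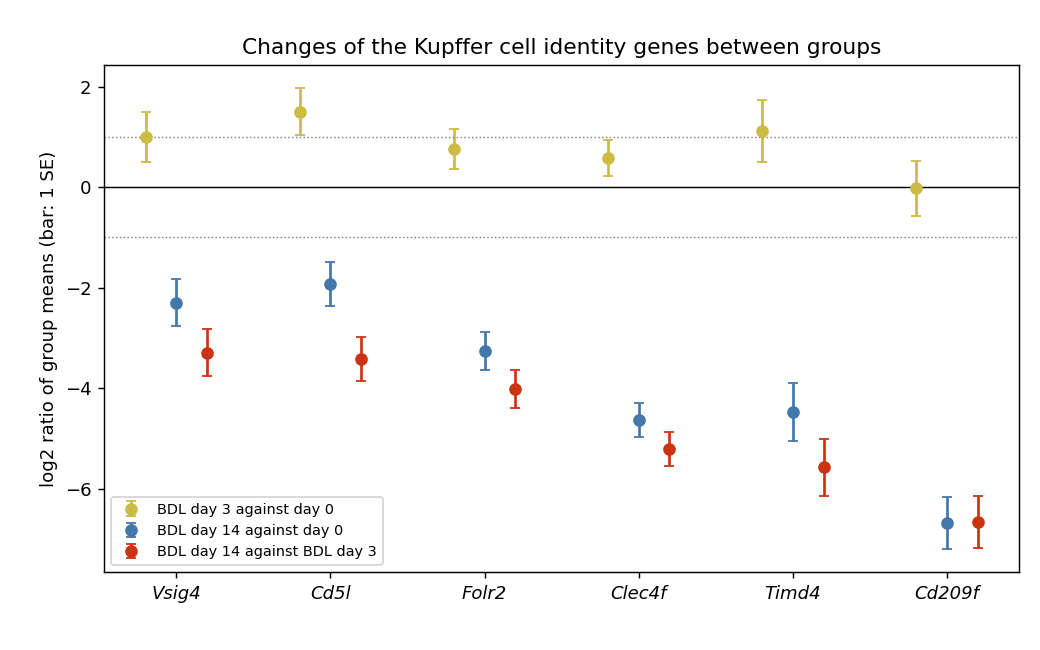
Log2 ratio of group means for the 6 genes in the 3 comparisons, with bars of 1 SE and dotted lines at 2-fold. The ratios of BDL day 14 against BDL day 3 (red) run from -3.30 for *Vsig4* to -6.67 for *Cd209f*, and those of BDL day 3 against day 0 (yellow) from -0.02 to 1.51.

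Against day 0, all 6 genes were at least 2-fold lower at BDL day 14, and 5 of them fell without possible overlap, *Cd5l* being the exception. Among all kept genes 19.6% were at least 2-fold lower and 3.10% were lower without overlap. In the other direction, 1262 of the 12889 kept genes were at least 2-fold higher. The day 0 libraries serve here and at BDL day 3, and the BDL day 14 libraries serve in both comparisons of that day, so these ratios are not an independent measurement of the decrease. *Cd209f* stood at -6.69 ± 0.51, *Clec4f* at -4.64 ± 0.34, *Timd4* at -4.47 ± 0.58, *Folr2* at -3.26 ± 0.38, *Vsig4* at -2.30 ± 0.47 and *Cd5l* at -1.92 ± 0.44. The genes that kept most of their day 0 level were thus *Cd5l* with 26.4% and *Vsig4* with 20.3%, while *Clec4f* kept 4.01% and *Timd4* 4.51%. The median was -3.87, against -0.04 over all kept genes.

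Other genes known from Kupffer cells gave lower ratios of smaller size. Of 28 such genes, 24 were at least 2-fold lower at BDL day 14 than at BDL day 3, 17 of them with no overlap possible, and 1 was 2-fold higher. The list median was -2.47, and 10 of the 28 were as low as *Vsig4* or lower. Against day 0, 20 were at least 2-fold lower and none 2-fold higher, with a median of -1.86. At BDL day 3 against day 0, 8 were 2-fold higher and 1 was 2-fold lower (median 0.65).

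*Fcna*, which encodes ficolin A, fell from 1630 at day 0 and 2930 at BDL day 3 to 217 at BDL day 14. *Marco*, a scavenger receptor, rose from 694 to 3920 at BDL day 3, 5.65-fold, and fell from there to 183 at BDL day 14, where overlap with day 0 was possible. *Hmox1*, the heme-degrading enzyme, rose from 606 to 3140 at BDL day 3 and fell from there to 840 at BDL day 14. *Cxcl13*, a chemokine for B cells, fell from 229 and 145 to 4.40, and *Kcna2*, a potassium channel, was at 67.4, 36.6 and 1.18, where overlap was possible.

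Not every gene of this list was lower. *Adgre1*, which encodes a surface antigen common to mouse macrophages, stood at 252, 522 and 378, and *Lyve1*, a hyaluronan receptor that sinusoidal endothelium also uses, at 40.7, 18.1 and 58.7.

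Transcription factors known from Kupffer cells, some of them shared with other macrophages, were less uniform. Of 15, 6 were at least 2-fold lower at BDL day 14 than at day 0, 1 was 2-fold higher and 8 were within 2-fold, with a median of -0.15. Against BDL day 3, 8 of the 15 were at least 2-fold lower and 1 higher, and the median was -1.06. Scaled to the general macrophage list, 2 were lower and 2 higher in that comparison, with a median of -0.58. *Nr1h3*, which encodes LXR alpha, stood at 274, 457 and 34.9 and fell against both earlier groups, with log2 ratios of -2.97 and -3.71. *Irf7*, a factor of the interferon response, likewise fell, from 473 and 475 to 64.7. *Rbpj*, the factor of Notch signalling, was the one that was higher, at 9.86, 9.91 and 35.6. *Spi1*, which encodes PU.1, stood at 200, 397 and 188, and *Irf8* at 111, 209 and 182.

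Genes of the signals that reach Kupffer cells, and of their receptors, showed a median of -0.14 at BDL day 14 against day 0, with 3 of 15 kept genes 2-fold lower and 1 higher. *Csf1r*, the receptor on which macrophages depend, stood at 1360, 2140 and 1230. *Tgfbr1* rose to 89.4 from 25.4, while *Tgfbr2* (73.6, 98.2 and 140) and *Notch2* (20.7, 29.5 and 40.9) stayed within 2-fold. *Eng*, which endothelial cells also use, stood at 179, 30.1 and 150. The ligands *Il34* and *Gdf2* were near the lower end of the table, at 3.80 and 2.88 at day 0 and at 0.256 and 0.410 at BDL day 14.

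Ligands, relatives and partners of the 6 genes were split. Of 22 kept genes, 5 were at least 2-fold lower and 8 at least 2-fold higher at BDL day 14 than at day 0, with a median of 0.36. Without possible overlap, 2 of them were lower, as were 3.10% of all kept genes. Another 2 were higher without possible overlap, a direction for which the share of all kept genes was not computed. Among all 12889 kept genes, 1262 were at least 2-fold higher. *C3*, the complement protein whose fragments VSIG4 binds, fell from 587 to 139. *Cd209g*, a close relative of *Cd209f*, was at 7.25, 5.87 and 0.0872, and since the last mean is at the floor of the table its decrease from day 0 was at least 29.7-fold. *Cd5*, a T cell gene related to *Cd5l*, had a mean at least 21.7-fold lower by the same bound, but overlap with day 0 was possible. *Cd36*, the receptor through which CD5L enters cells, stood at 70.8, 208 and 319, and *Havcr2*, which like TIMD4 belongs to the TIM family, rose from 2.94 to 31.7. *Clec4g*, a lectin of sinusoidal endothelium, was at 241, 69.5 and 365.

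The median log2 ratio of general macrophage genes at BDL day 14 against day 0 was small, although their summed counts were higher, at 29597 against 18543. Of 18, 1 was at least 2-fold lower and 3 at least 2-fold higher at BDL day 14 than at day 0, and the median of 0.09 was -0.04 under quantile normalization and so has no direction. *C1qa* stood at 2440, 4530 and 1900, *C1qb* at 3030, 6320 and 3640, and *C1qc* at 2830, 4450 and 1620. *Lyz2*, lysozyme of myeloid cells, rose from 2280 to 11200 and the protease gene *Ctss* from 1420 to 3230. *Aif1* was the one that was lower, at 479, 411 and 219. Against BDL day 3 the list had a median of -0.65. With the group means scaled to this list, the median of the 6 genes in that comparison was -4.14.

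Genes of recruited monocytes and of lipid-associated macrophages were higher in the same samples. Of 11 recruited monocyte genes, 8 were at least 2-fold higher at BDL day 14 than at day 0 and 3 lower (median 2.31). Of the 8, 4 were higher with no overlap possible. Of the 12889 kept genes, 1262 were at least 2-fold higher in that comparison. The share of kept genes that were higher without possible overlap was not computed, here or for the list that follows. *Chil3*, a lectin-like protein of monocytes, rose from 14.7 to 858, and *F13a1*, coagulation factor XIII A, from 10.0 to 334. *Plac8* fell from 228 to 46.9. Of 10 genes of lipid-associated macrophages, 8 were 2-fold higher, 6 of them with no overlap possible, and none lower (median 3.30). Among them *Gpnmb* rose from 13.2 to 1130, *Fabp5*, a fatty acid carrier, from 30.1 to 494, and *Lgals3*, galectin 3, from 356 to 1430. *Spp1* (459, 175 and 792) and *Lpl* (540, 1250 and 680) were within 2-fold of day 0. The share of these genes in the decreases of the 6 was not tested.

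**Figure D4:**
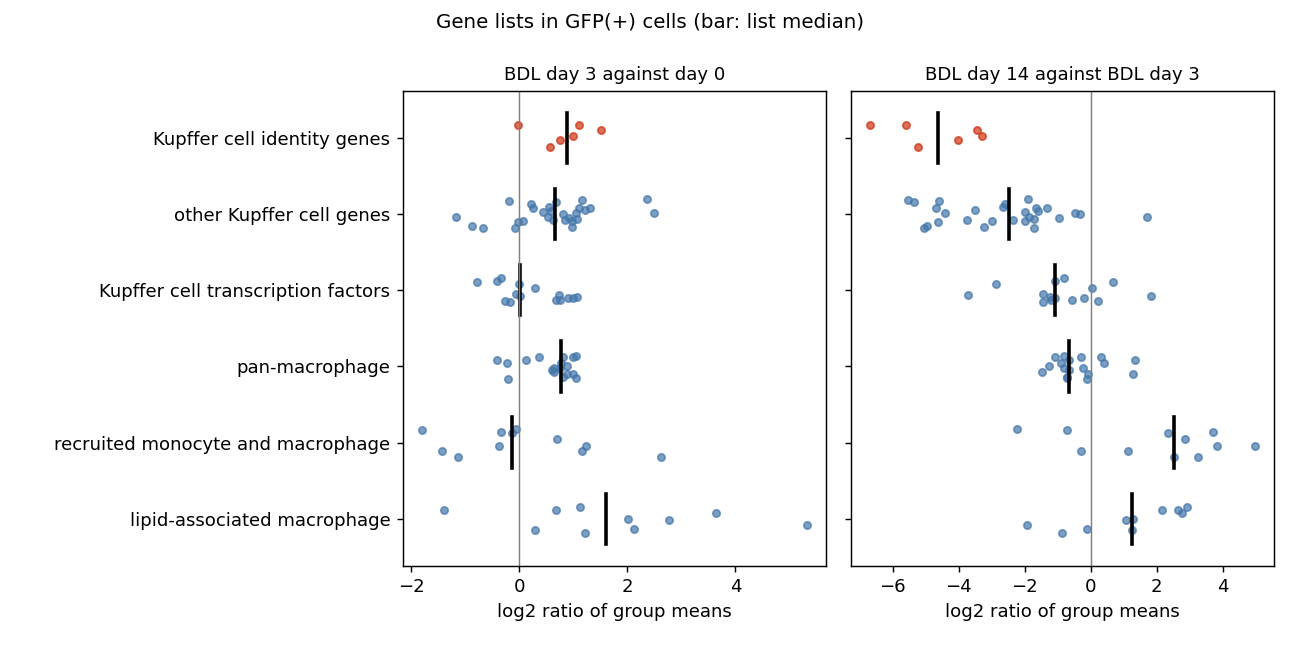
Log2 ratios of single genes (points) and list medians (bars) for the 6 Kupffer cell identity genes (red) and 5 other lists (blue), at BDL day 3 against day 0 (left) and BDL day 14 against BDL day 3 (right). On the right the median of the 6 genes is -4.62, that of the other Kupffer cell genes -2.47, that of general macrophage genes -0.65 and that of recruited monocyte genes 2.51.

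Markers of other cells also moved between the groups. Hepatocyte genes summed to 3403, 991 and 420 in order of time, and all 10 were at least 2-fold lower at BDL day 14 than at day 0. Mesenchymal genes summed to 1202, 31.3 and 112 (10 of 10 lower), B cell genes to 180, 49.1 and 21.3 (4 of 4 lower), and T and NK cell genes to 78.4, 24.4 and 7.57 (6 of 6 lower). Neutrophil genes summed to 485, 226 and 131, with 4 of 5 lower. Sinusoidal endothelial genes summed to 1298, 500 and 2124, with none of 10 lower and 2 higher. Dendritic cell genes summed to 43.4, 14.4 and 23.4 (4 of 7 lower, 1 higher), and genes of other resident and peritoneal macrophages to 897, 1081 and 683 (3 of 9 lower, 2 higher). At BDL day 3 against day 0, the means of 5 of the 6 genes were higher. In that comparison 2682 of the 12889 kept genes were at least 2-fold lower. Among them were 7 of the 10 hepatocyte genes, 10 of the 10 mesenchymal genes and 4 of the 4 B cell genes. The part of these cells in the values of the 6 genes was not tested.

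The genes nearest to each of the 6 in pattern were those with the smallest distance over the log2 ratios of BDL day 3 and BDL day 14 to day 0, which rests on 3 groups. Nearest to *Clec4f* were *C6*, a complement component (255, 409 and 10.1, distance 0.104), *Raver2* (0.131) and *Gfra2* (0.385). Nearest to *Timd4* were *Pcolce2* (48.9, 109 and 2.35, distance 0.101), *C6* (0.469) and *Clec4f* (0.558). *Xlr* (0.0566), *Ank2* (0.0775) and *Cx3cl1* (0.122) were nearest to *Vsig4*, and *Epb41l3* (0.141), *Fam167a* (0.169) and *Atp2b2* (0.191) to *Folr2*.

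The genes nearest to *Cd5l* were 1700086O06Rik (0.171), Gm13375 (0.250) and *Tk1* (0.296), of which the first 2 had means of 1.88 and 0.884 at day 0. Those nearest to *Cd209f* were *Camp*, a granule peptide of neutrophils (8.79, 7.09 and 0.103, distance 0.400), *Cd209g* (0.423) and *Abhd11os* (0.639), all with BDL day 14 means at the floor, as were those of *Raver2* and *Atp2b2*. *C6*, *Gfra2*, *Pcolce2* and *Xlr* belong to the 28 other Kupffer cell genes, and no gene of that list was among the 3 nearest to *Folr2*, *Cd5l* or *Cd209f*.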

How the data were processed

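The authors aligned the reads to mm10 with STAR, counted them on GENCODE genes and scaled the counts to their upper quartile in Partek Flow. The submitters' processing notes name STAR 2.6.1d, and the study's methods name another version. The deposited values are signal (for each group a least squares mean of normalized counts, and an arithmetic mean over the libraries), with a geometric mean, a sum and a highest count over 10 libraries. Columns of the authors' comparisons (p-values, adjusted p-values, ratios, fold changes and their limits) were not used. Per-library columns numbered 0, and depth per library is unknown. Of the labelled BDL day 14 samples 2, not named, were left out by the authors for too few reads. With 3, 3 and 4 libraries the group means gave back the arithmetic mean (99th percentile of the deviation 0.469%).

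Genes with summed normalized counts of at least 10 were kept (12889 of 16969, after 2 repeated symbols were dropped). All 6 Kupffer cell identity genes were kept. Log2 ratios of group means were taken without a pseudocount. The SD came from the gap between the geometric mean and the group means, with 7 degrees of freedom, assuming equal spread in the groups, and the limits allowed for rounding. These steps were tested on simulated data with the same spread in every group, which cannot show how they perform where the spread differs. A mean of up to 4 times the lowest mean of its group was read as the floor. Exon lengths were the union of exons in GENCODE M21, and end positions are 1 base below those of the table, which matches that annotation. Python 3.11.15, numpy 2.4.6 and pandas 2.3.3 were used.

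The members and lists were chosen with earlier results of these data known. Named were the 6 genes, the 3 most abundant and the 2 highest and 2 lowest by BDL day 14 against day 0 of each list whose genes are described singly, and the 3 genes nearest to each of the 6. Some genes that this rule names are not reported here. Nothing in the labels says that samples of a group came from separate mice beyond the study's own account. The alternatives were other scalings, pseudocounts, filters and folds, and leaving out the highest library of each gene.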

Additional observations from a re-analysis of the deposited data

How the results depend on the processing

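All 6 Kupffer cell identity genes stayed at least 2-fold lower at BDL day 14 than at BDL day 3 and at day 0. That held under every other scaling, pseudocount and filter, and without the highest library of each gene. With the threshold at 4-fold, all 6 passed against BDL day 3 and 5 against day 0. Of 144 values of single genes under 8 alternatives, 138 moved by less than their SD, 5 moved further and 1 changed sign, *Cd209f* at BDL day 3 against day 0 under median-ratio scaling (0.0047). The 138 include values that could not move. A change of filter cannot alter the ratio of a single gene. Leaving out the highest library left *Clec4f* and *Cd209f* as they were, and every gene at BDL day 14 against day 0. The largest decrease from BDL day 3 was -5.47 with a pseudocount of 1, where that constant exceeds the BDL day 14 mean of *Cd209f*. The number of genes at least 2-fold higher at BDL day 3 than at day 0 was 1 under quantile normalization, 0 under scaling to the general macrophage list, 0 with a fold of 4 and 1 without the highest library of each gene. The alternatives of that count, and the scaling alternatives of the counts without overlap, were added after the data were seen. Of all genes past 2-fold at BDL day 3, 26.5% were higher in the authors' scaling, 48.3% after quantile normalization and 5.91% in macrophage scaling. At BDL day 14 against day 0 these shares were 33.3%, 50.2% and 28.4%, and against BDL day 3 56.5%, 52.9% and 81.4%. Leaving out each replicate in turn was not run, since the table holds no value per library. No paired analysis was possible because the columns carry no replicate numbers. Depth limits *Cd209f* most, whose BDL day 14 mean was 0.368.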
